A study of Mus musculus with 2 samples.

Results

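Solute carriers are membrane proteins that move nutrients, ions and metabolites across cell and organelle membranes, and their genes fall into numbered families. The carriers described here were the cDNA clones of the array whose current mouse gene symbol begins with Slc and a digit. They numbered 124 of 16896 clones, stood for 103 genes of 39 families and came from 93 of the 176 source plates. The mitochondrial family Slc25 held 18 clones of 15 genes, and the other families held 106 clones of 88 genes. All signal levels were kept, and 63 of the 124 clones lay in the brighter 50% of the array. The array was hybridised with RNA recovered from extracts of C2C12 cells, a mouse myoblast line, by immunoprecipitation. The cells were untreated and proliferating, in medium with 20% serum and 1% antibiotics, and were collected at 80% confluency. One group was recovered with an anti-HuR antibody (3A2, per the series' design text), and the control group was recovered with IgG. Each group had 1 sample and 3 array runs, called here unnumbered, 3 and 4 after their headings. Whether they are repeats of 1 immunoprecipitation is not stated, so they were not treated as replicate samples, and the antibodies could not be compared by a test. The SD given with a value is the spread between run pairs only.

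HuR (Elavl1) is an RNA-binding protein that recognises AU-rich and U-rich stretches, mostly in the 3' ends of messenger RNAs, and can lengthen their life or change their translation. Most carriers of the Slc25 family lie in the inner mitochondrial membrane and exchange nucleotides, phosphate, amino acids, acids of the citrate cycle and cofactors with the cytosol. Other carriers sit in the plasma membrane or in organelles and bring in glucose, amino acids, ions, metals, nucleosides and lactate. A few carrier mRNAs have been described elsewhere as bound or regulated by HuR, among them the glucose transporter Slc2a1 and the cationic amino acid transporter Slc7a1.

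Values are z scores, in which a run has a mean of 0 and an SD of 1 over the clones of an array section. They were centred on the median of the run in each section. A difference is HuR minus IgG in z score units, averaged over the 3 run pairs. Where a gene had several clones, their median was taken. A score ranks a clone within a run. It is not an amount of RNA, and scores of different clones cannot be set against each other as levels. Over all features, the HuR runs correlated at 0.80 to 0.87 and the IgG runs at 0.77 to 0.88, while the differences correlated at only 0.03 to 0.31 between run pairs. The cell type could not be checked from the scores. Of 10 myoblast markers, 2 had a named clone (Msc and Fgfr1, with differences of -0.09 and 0.06), and no clone was matched to Myod1, Myf5, Pax7 or Des. All 6 liver and epithelial markers had one, with differences of -0.43 to 0.00. The scores of Alb (0.50 with HuR and 0.93 with IgG), Ttr, Apoa1 and Krt18 lay above the array median with both antibodies. Cdh1 lay near the median (0.005 and 0.11), and Krt8 lay below it (-0.58 and -0.56). Of 3 blood and 3 neuron markers, only Hbb-b1 and Tubb3 had a named clone, with differences of -0.13 and 0.28.

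Most solute carrier mRNAs had nearly equal scores with HuR and with IgG. The median difference over the 103 genes was -0.01 ± 0.02 (SD of the median over 3 run pairs), against -0.04 ± 0.06 over all 8045 named genes of the array. Of the 103 genes, 49 lay above 0 and 53 below. Slc25a39 and Slc15a2 were at least 1 unit higher with HuR. These were 2 of 124 clones (1.61%), and 1.13% of all features passed this threshold. No solute carrier clone was at least 1 unit lower, where 0.166% of all features were. The share of solute carriers past 1 unit was thus near that of the array in both directions.

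Slc25a39, the inner membrane carrier needed for import of glutathione into mitochondria (Entrez Gene 68066), was represented by 1 clone in well F3 of source plate 10. Its centred scores were 3.64, 3.47 and 4.10 in the unnumbered HuR run, run 3 and run 4, and 1.58, 1.24 and 1.44 in the matching IgG runs. Every HuR run lay above every IgG run, and the IgG scores were themselves well above the array median. The difference was 2.32 ± 0.31 and ranked 14th of the 16896 features. The authors' deposited table gave this clone a z ratio of 7.73.

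Slc15a2, a proton-coupled transporter of short peptides (Entrez Gene 57738), was represented by 1 clone in well G3 of plate 41. It scored 1.67, 1.28 and 1.72 in the unnumbered HuR run, run 3 and run 4. In the matching IgG runs it scored -0.23, 0.00 and 0.03, near the array median. The runs of the antibodies did not overlap, and the difference was 1.62 ± 0.32. Slc66a2, a member of the PQ-loop group of carriers, followed, with HuR scores of 1.11, 0.38 and 1.05 and IgG scores of -0.16, 0.11 and 0.21 on plate 42, well C2. Its difference of 0.79 ± 0.50 ran from 0.27 in run pair 3 to 1.27 in the unnumbered pair.

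**Figure D1:**
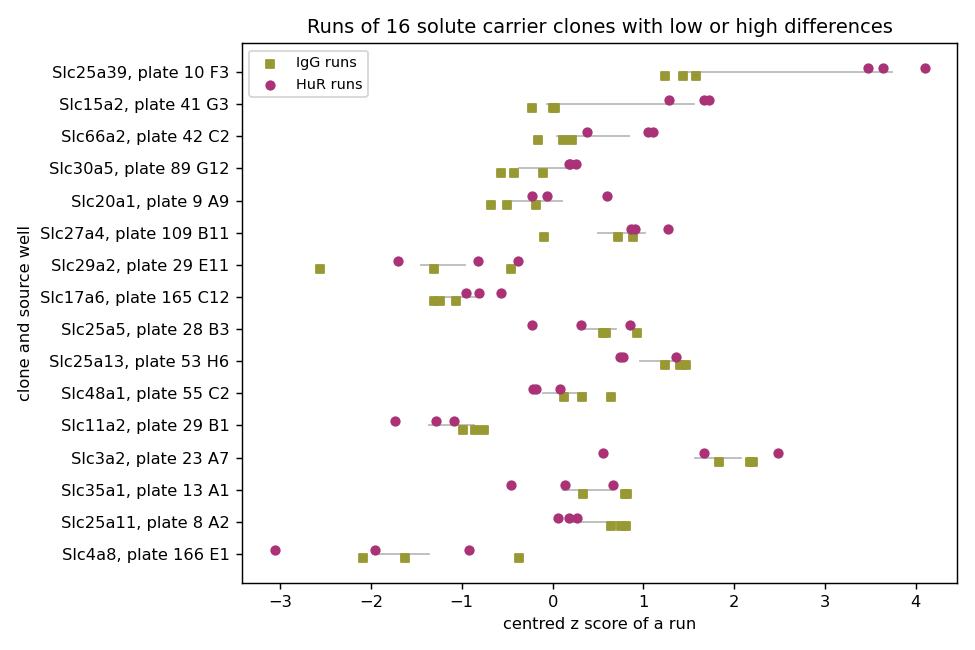
Centred z scores (horizontal axis) of the 3 HuR runs (circles) and the 3 IgG runs (squares) for the 8 lowest and 8 highest of the solute carrier clones reported by name, labelled with source plate and well (vertical axis); grey lines join the means. Slc25a39 and Slc15a2 show clear gaps between the antibodies, whereas the runs of Slc20a1, Slc27a4, Slc29a2 and Slc3a2 overlap.

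The high clones lay among other high clones on their source plates. The 8 wells adjoining Slc25a39 on plate 10 had a median difference of 2.08 and ran from 0.36 to 2.47. They included Fbxl5 at 2.39, Heyl at 2.17, Ext2 at 1.99 and Rbm3 at 1.98, none of them a carrier. On this plate 23 of 96 wells were at least 1 unit higher with HuR, among them a well of Actb, the beta-actin mRNA, at D2. The 8 wells adjoining Slc15a2 on plate 41 had a median of 1.32 and ran from 0.49 to 2.66. The highest of them was an Actb clone in well F3, directly beside Slc15a2, and Fgf10 at 2.05 lay next to that. Plate 41 had 15 wells at least 1 unit higher and a median over all 96 wells of 0.41.

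The same wells of other plates were not high for these 2 clones. Clones from 1 well position of 22 plates were spotted together in a grid on the array, so the 21 spots printed with Slc25a39 also came from wells F3. Their median difference was -0.16 and the highest was 0.58. The 21 grid mates of Slc15a2 had a median of -0.02 and a highest value of 0.24. Around both clones the values were thus high on the source plate and not in the grid. For Slc30a5, Slc27a4 and Slc17a6 the medians of the grid mates lay above 0, at 0.26, 0.36 and 0.41. These clones came from wells G12, B11 and C12 of plates 89, 109 and 165, all in columns 11 or 12. When the median of the adjoining wells was subtracted within each run pair and the pairs were then averaged, 0.21 remained for Slc25a39, 0.30 for Slc15a2 and 0.18 for Slc66a2. The part of the neighbouring wells in these values was not tested. With 1 clone per gene, recovery of the mRNA and the position of its well cannot be told apart. A second Slc gene on plate 41, the glucose and fructose transporter Slc2a8, lay in well F9. It was at 0.05 ± 0.11 there and at 0.03 ± 0.26 on plate 37.

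**Figure D2:**
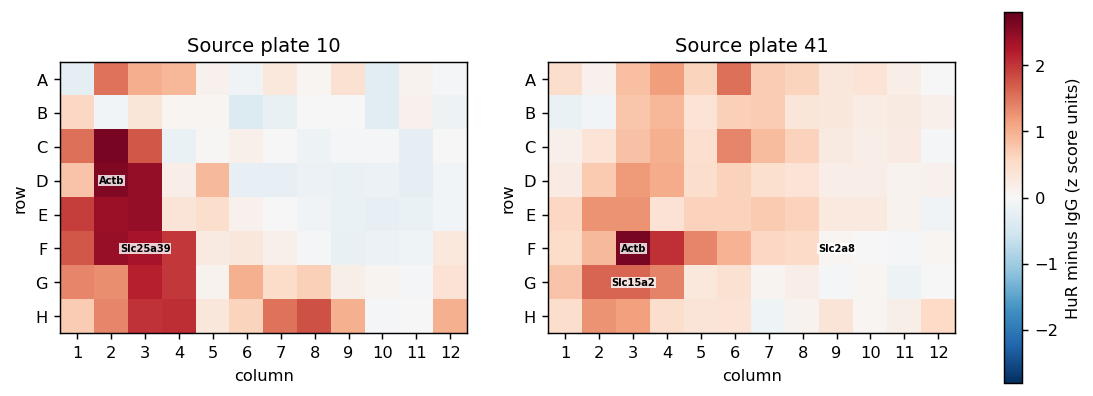
Maps of source plates 10 and 41 (rows A to H, columns 1 to 12) coloured by HuR minus IgG in z score units, red for higher with HuR, with the solute carrier and Actb wells named. Slc25a39 (2.32) and Slc15a2 (1.62) lie inside patches of high wells that also hold an Actb well.

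Neighbours of a clone are called raised here where its adjoining wells, at most 8, had a median of 0.5 or more. This held for 7 of the 124 solute carrier clones (5.65%), against 1.81% of all features. Differences of at least 0.5 were found in 7 solute carrier clones (5.65%, against 4.36% of all features), and 6 of these 7 had raised neighbours. The exception was Slc20a1, a sodium and phosphate cotransporter, at 0.56 ± 0.67, whose adjoining wells had a median of 0.33. Over all features, 199 of the 737 at or above 0.5 had raised neighbours. Among the 117 carrier clones without raised neighbours, Slc20a1 was the highest. As a description, the difference of a clone and the median of its adjoining wells correlated at 0.87 over the 124 carrier clones, at 0.63 over the 117 without raised neighbours and at 0.64 over all features. The points of this correlation share the source plates and the runs.

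**Figure D3:**
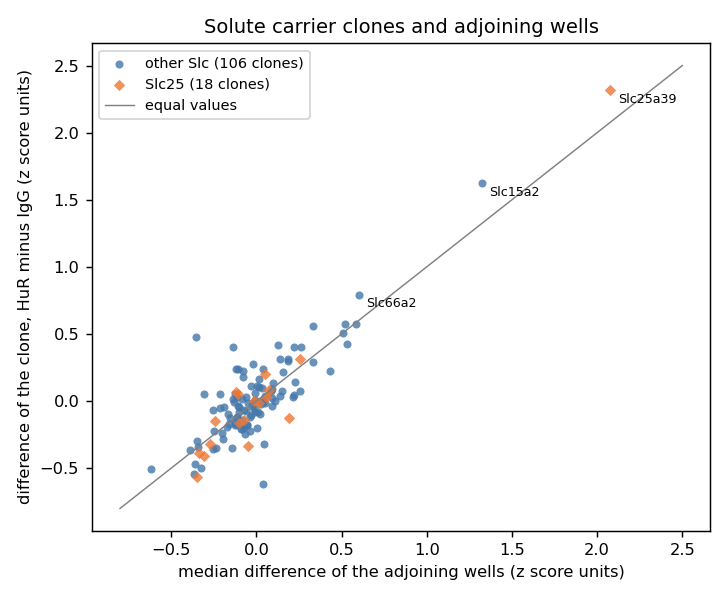
Difference of each solute carrier clone (vertical axis) against the median difference of its adjoining source wells (horizontal axis), both in z score units; diamonds are Slc25 clones, circles the other carriers, and the line marks equal values. Slc25a39, Slc15a2 and Slc66a2 stand at the upper right, close to the line.

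The differences of single run pairs repeated poorly. Over the 124 clones the differences correlated between run pairs at 0.35, 0.40 and 0.29 (unnumbered with 3, unnumbered with 4, and 3 with 4). Without the 7 clones with raised neighbours the same correlations were 0.06, 0.09 and -0.09. Those left out hold 6 of the 7 clones at or above 0.5, and the narrower range lowers a correlation by itself. The median SD over run pairs of a carrier clone was 0.28, close to the 0.29 of all features. It was 0.33 on the first section of the array (plates 1 to 88, 61 carrier clones) and 0.23 on the second (plates 89 to 176, 63 clones). The difference had the same sign in all run pairs in 31 of the 124 clones (25%, against 23.1% of all features), 16 of them above 0 and 15 below.

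Few clones had runs that did not overlap between the antibodies. In 7 carrier clones (5.65%) every HuR run lay above every IgG run, against 3.88% of all features. Besides Slc25a39, Slc15a2 and Slc66a2 these were Slc30a5, Slc17a6, Slc4a3 and Slc16a6, and only the last 2 had no raised neighbours. In 6 carrier clones (4.84%) every HuR run lay below every IgG run, against 2.56% of all features. These were Slc25a11, Slc11a2, Slc48a1, Slc5a11, Slc1a5 and Slc38a1, at -0.56 to -0.22. The medians of their adjoining wells were -0.35, -0.32, -0.36, -0.20, -0.04 and -0.25 in that order. The -0.04 beside Slc1a5 was near the median of all features, -0.03. Single wells adjoining Slc1a5 and Slc5a11 reached 0.13 and 0.05.

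The mitochondrial carriers and the other carriers differed little. The median of the 15 Slc25 genes was -0.02 ± 0.13 and that of the 88 other genes was -0.01 ± 0.03, a difference of -0.01 ± 0.16. By run pair (unnumbered, 3, 4) the Slc25 median was -0.09, 0.12 and -0.13, while that of the other carriers was 0.005, -0.025 and 0.025. The Slc25 median thus changed sign between run pairs, as did that of all named genes (-0.09, 0.03 and -0.03). Its median scores were 0.20, 0.30 and 0.30 in the unnumbered HuR run, run 3 and run 4, and 0.56, 0.23 and 0.01 in the IgG runs. Each is a median over genes taken by itself. The gap between 2 of them is therefore not the median difference, which was -0.13 in pair 4. Among Slc25 clones 13 of 18 lay on the first section of the array, against 48 of 106 for the other carriers. On that section alone the medians were -0.06 ± 0.32 for 10 Slc25 genes and 0.02 ± 0.08 for 40 others. In the brighter 50% of features they were -0.145 ± 0.31 for 10 Slc25 genes and 0.00 ± 0.05 for 48 others. The spread exceeded the difference here, since the Slc25 median by run pair was -0.475, 0.13 and -0.285.

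The lowest Slc25 genes were Slc25a11, Slc25a13 and Slc25a5. Slc25a11, the oxoglutarate and malate carrier, had clones at -0.56 ± 0.19 (plate 8, A2) and -0.32 ± 0.50 (plate 53, H8). On the plate 8 clone the HuR runs scored 0.18, 0.06 and 0.27 and the IgG runs 0.75, 0.81 and 0.64, without overlap. On the plate 53 clone the difference was -0.76 and -0.41 in the unnumbered pair and pair 4, but run pair 3 gave 0.22. Wells adjoining these clones were themselves below 0, with medians of -0.35 and -0.27. Slc25a13, an aspartate and glutamate carrier, was at -0.41 ± 0.46, with -0.69, 0.12 and -0.66 by run pair. Slc25a5, an adenine nucleotide translocator that exchanges ADP and ATP, was at -0.38 ± 0.56, with -0.79, 0.26 and -0.62. Slc25a13 and Slc25a5 were thus below 0 in the unnumbered pair and pair 4 and above 0 in pair 3. All wells adjoining these clones were below 0 as well, with medians of -0.31 for Slc25a13 and -0.34 for Slc25a5. The Slc25a17 clones, for a peroxisomal carrier, were at -0.17 ± 0.23 and -0.15 ± 0.38.

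The remaining Slc25 genes lay close to 0 or varied between run pairs. Slc25a3, the mitochondrial phosphate carrier, was at -0.13 ± 0.06, with -0.07, -0.18 and -0.13 in the 3 run pairs. Its adjoining wells had a median of 0.19. Slc25a37, mitoferrin, which brings iron to haem synthesis, was at -0.14 ± 0.08. Slc25a22 (glutamate), Slc25a33 and Slc25a36 (pyrimidine nucleotides) and Slc25a32 (folate) ran from -0.02 to 0.07. Slc25a20, the carnitine and acylcarnitine carrier, was at 0.05 ± 0.53. Slc25a10, the dicarboxylate carrier, was at 0.20 ± 0.93, with -0.58, -0.04 and 1.23, and Slc25a30 at 0.32 ± 0.31 was the highest after Slc25a39. Slc25a4 had no clone matched to it. Without Slc25a39, which spans most of the range, the differences of the 17 other clones correlated between run pairs at only -0.05 to 0.13.

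**Figure D4:**
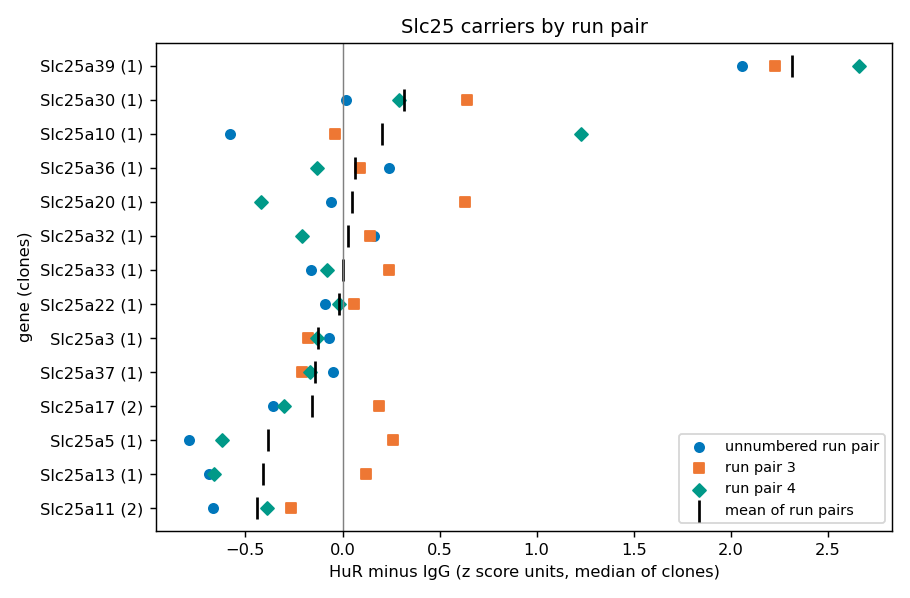
HuR minus IgG in z score units (horizontal axis) for 14 Slc25 genes (vertical axis, with the number of clones) in the unnumbered run pair (circles), run pair 3 (squares) and run pair 4 (diamonds); the bar is the mean of the run pairs. Slc25a39 is above 2 in every pair, and the other 13 genes lie between -0.44 and 0.32 in the mean.

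Other genes of mitochondrial transport were set beside them. The pores and import subunits (Vdac, Tomm and Timm genes among them) had 20 genes on 24 clones with a median of -0.08 ± 0.12 and values of -0.14, 0.04 and -0.18 in the 3 run pairs. The ABC transporters (15 genes) had a median of -0.02, the sodium pump subunits (3 genes) -0.13 and the organic anion transporters of the Slco group (4 genes) 0.04. None of the clones of these 4 lists reached 1 unit in either direction.

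Amino acid carriers had a median of -0.065 ± 0.11 over 15 genes, against -0.04 ± 0.06 over all named genes, a gap within the spread between run pairs. Of the 15 genes 4 were above 0, where 42.3% of all named genes were. Slc3a2, the heavy chain that carries several amino acid exchangers to the plasma membrane, was at -0.50 ± 0.80. Its HuR runs scored 0.55, 2.48 and 1.67 and its IgG runs 1.83, 2.17 and 2.21. The unnumbered pair (-1.28) set the mean, while pair 3 was at 0.31, and the wells adjoining it had a median of -0.62. Slc7a7, a light chain partner of Slc3a2, was at -0.32 ± 0.65, while its adjoining wells had a median of 0.04. Slc1a5, a neutral amino acid and glutamine carrier, was at -0.23 ± 0.20. Its HuR runs scored -0.41, -0.59 and -0.25 and its IgG runs -0.19, -0.16 and -0.22. The highest were Slc43a3, placed here by its family number although it carries purine nucleobases, at 0.22 ± 0.35 and the proline transporter Slc6a20a at 0.27 ± 0.86. The remaining members ran from -0.30 to 0.10. Slc7a1 and Slc7a5 had no clone matched to them.

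Sugar carriers had a median of -0.16 ± 0.12 over 10 genes, 3 of them above 0, against the median of -0.04 and the 42.3% above 0 of all named genes. Slc2a1, the basal glucose transporter, was at -0.34 ± 0.69. It scored -0.50, 0.09 and 0.08 in the HuR runs and 0.62, -0.12 and 0.20 in the IgG runs, so the sign differed between run pairs. The wells adjoining Slc2a1 on plate 15 had the same median as the clone, -0.34, and ran from -1.02 to -0.19. Slc37a3 was at -0.25 ± 0.62. Slc2a3, a glucose transporter of high affinity, was highest at 0.14 ± 0.33, and Slc2a8 was at 0.04 ± 0.15. Slc5a1 had no clone matched to it.

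Ion carriers had a median of -0.05 ± 0.14 over 13 genes. Slc4a8, a sodium-driven bicarbonate exchanger, had the lowest clone of all solute carriers, at -0.62 ± 0.78 on plate 166. The wells adjoining this clone were not low, with a median of 0.04. The clone differed by -1.43, -0.55 and 0.13 in the 3 run pairs, and the other Slc4a8 clone on plate 59 was at -0.14 ± 0.12. At or below -0.6 the plate 166 clone was the 1 solute carrier clone of 124 (0.81%), against 1.28% of all features. At or above 0.6 there were 3 (2.42%), against 3.10%. The anion exchangers Slc4a3 and Slc4a2 were at 0.42 ± 0.24 and 0.30 ± 0.31. The HuR runs of Slc4a3 scored 1.58, 1.28 and 1.48, all above its IgG runs of 1.16, 1.10 and 0.82, and its adjoining wells had a median of 0.13. Slc12a2, the sodium, potassium and chloride cotransporter, had 4 clones on 4 plates, at -0.28, -0.04, 0.05 and 0.09, and a gene value of 0.01 ± 0.26. Slc9a3r1, at -0.18 ± 0.21, matches the symbol rule but encodes a scaffold protein that binds an ion exchanger and is no carrier.

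Metal carriers had a median of 0.03 ± 0.09 over 13 genes. Slc30a5, a zinc transporter of the secretory pathway, was highest at 0.58 ± 0.25, with HuR runs of 0.26, 0.19 and 0.18 above IgG runs of -0.42, -0.57 and -0.11. Its adjoining wells on plate 89 had a median of 0.52 and held Sox4 at 1.16. Slc39a8, a zinc and manganese importer, was at 0.29 ± 0.23. Slc40a1, the iron exporter ferroportin, was at -0.21 ± 0.13. Slc11a2, the iron importer DMT1, was split between a clone at -0.50 ± 0.41 and one at 0.08 ± 0.37, with a gene value of -0.21 ± 0.29. Slc11a1 had no clone matched to it.

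Carriers of nucleosides and nucleotide sugars had a median of -0.005 ± 0.11 over 14 genes, 7 on either side. Slc35a1, which brings the sialic acid donor into the Golgi, was at -0.54 ± 0.62, with -0.16, -0.20 and -1.26 in the run pairs. Slc28a2, a concentrative nucleoside transporter, was at -0.20 ± 0.21. Slc29a2, an equilibrative nucleoside transporter, was at 0.48 ± 1.12, set by pair 4 alone (1.74, against 0.08 and -0.39). Its IgG run 4 scored -2.56 against -0.46 and -1.31 in the others. The wells adjoining it lay the other way, with a median of -0.36. The highest gene below Slc29a2 was Slc35f2 at 0.24 ± 0.41, and Slc35b4, a nucleotide sugar transporter, was also at 0.24 ± 0.67.

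The class of lactate and other organic acid carriers had a median of 0.11 ± 0.06 over 7 genes, 5 of them above 0 (42.3% of all named genes). Slc16a6 was at 0.40 ± 0.47, with HuR runs of 1.58, 1.68 and 1.54 and IgG runs of 1.49, 0.74 and 1.37. The monocarboxylate transporters for lactate, Slc16a1 and Slc16a3, lay at 0.24 ± 0.44 and -0.19 ± 0.29, and Slc22a5, the carnitine importer, at -0.18 ± 0.24. The HuR and IgG runs of these 3 genes overlapped.

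With all clones kept, the mixed class of phosphate, peptide, vesicular, fatty acid and vitamin carriers had the highest median among classes of at least 5 genes. Of its 11 genes, 10 were above 0, where 42.3% of all named genes were, and its median was 0.17 ± 0.14, with 0.36, 0.24 and 0.075 in the 3 run pairs. Slc15a2, Slc27a4 and Slc17a6 of this class had raised neighbours. Without them the median of the other 8 genes was 0.09 ± 0.18, with 0.305, -0.05 and 0.05 in the run pairs, so its spread exceeded it. Of these 8 genes 7 were still above 0 (87.5%), against 41.1% of all named genes when clones with raised neighbours were left out. Under the same filter the organic acid class stood at 0.11 ± 0.06, slightly above this class, a gap within the spread. Slc20a1 differed by 0.44, 1.28 and -0.05 in the run pairs. Slc27a4, a fatty acid transporter named after its value was seen, was at 0.51 ± 0.51 in well B11 of plate 109, whose adjoining wells had the same median. Slc44a2 and Slc44a1, of the choline transporter group, were lowest at -0.07 ± 0.38 and 0.01 ± 0.12. Of the families outside these classes, the haem transporter Slc48a1 was at -0.47 ± 0.14, the urea transporter Slc14a1 at -0.35 ± 0.32 and the riboflavin transporter Slc52a2 at -0.36 ± 0.56. These 3 were named after their values were seen.

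**Figure D5:**
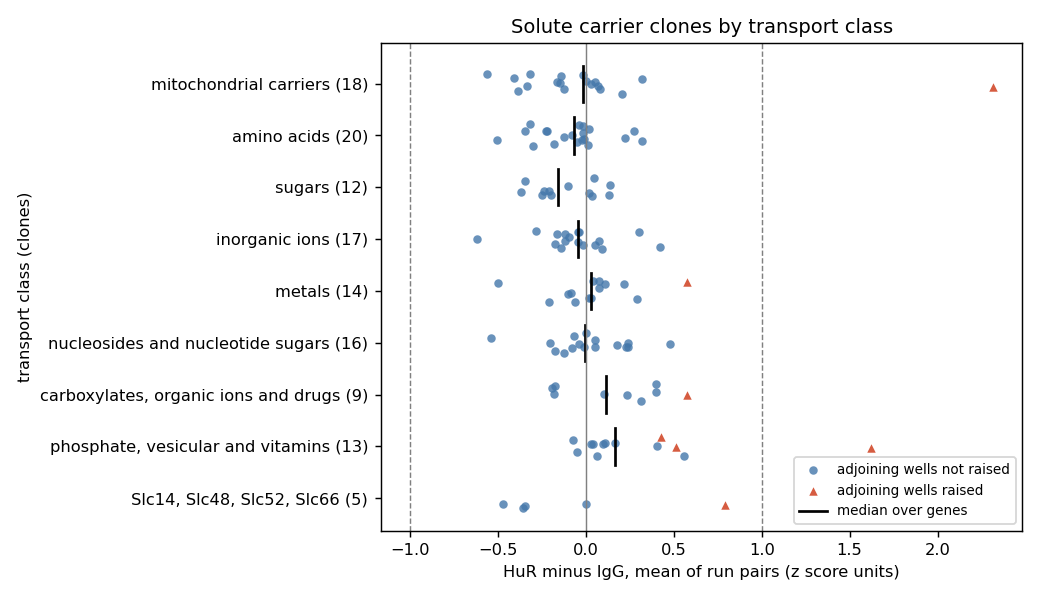
HuR minus IgG in z score units (horizontal axis) for the 124 solute carrier clones by transport class (vertical axis, with the number of clones); triangles mark clones with raised adjoining wells, black bars the median over the genes of a class, and dashed lines 1 unit. Apart from Slc25a39 and Slc15a2 the clones lie between -0.62 and 0.79.

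Genes with several clones gave a check on single values. There were 19 of them with 40 clones. In 18 genes with 2 clones, the clones lay 0.01 to 0.57 apart (median 0.23), and the median was 0.20 over all 1329 such genes of the array. Both clones had the same sign in 11 of the 18, against 55.7% of all such genes. The widest gaps were those of Slc11a2 and of Slc16a13, whose clones were at -0.17 and 0.40. Slc25a39, Slc15a2 and Slc66a2 had 1 clone each, so no second clone on another plate could be set against their values.

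The authors' deposited table listed a p below 0.05 for 15 of the 124 solute carrier clones (12.1%), 6 higher and 9 lower, against 7.48% of all features. Besides Slc25a39 the higher ones were Slc15a2 (z ratio 5.41 in the authors' deposited table), Slc66a2 (2.64), Slc30a5 (1.90), Slc17a6 (1.42) and Slc4a3 (1.40). The lowest z ratios among the 9 in the authors' deposited table were -1.88 for Slc25a11 and -1.66 for Slc11a2. How this p was computed is not given in the sources used here, nor whether it was adjusted, and it rests on runs of 1 sample per antibody.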

How the data were processed

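The deposited table lists 16896 spotted clones from 176 plates of 96 wells, in 2 sections of 8448 features, and the RNA was reverse transcribed with a radiolabel, per the labels. The authors deposited scores (z scores), per the file headers, for 3 runs of each antibody. The mean scores of both deposited files were identical, and the mean of the runs differed from them by at most 0.0067. The sources used here do not give the scanner, log base or background correction. A z ratio and a p-value, named 2-tailed per the file headers, were deposited beside the scores.

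Clones took the current RefSeq symbol (GRCm38.p6) of their Entrez Gene number, or else the symbol of the table. By number 123 members were named and 1 by symbol. In 6 the table gave 2 numbers of which 1 is current, and 1 clone with 2 current numbers was left out. In each section the median of a run was subtracted from it, which moved a pair difference by at most 0.05. HuR and IgG runs were paired by number. Deviations from the mean of an antibody correlated for like numbers at 0.42, 0.55 and 0.33, against -0.48 to 0.08 for unlike numbers. The deviations of an antibody sum to 0 for each clone, so the low values for unlike numbers are partly built in. Pairing changes the SD and not the mean. The number of arrays limits the precision.

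Because the values are scores, no fold change was given. A threshold of 1 unit was used as a size and not as a test, and 0.6 and 1.5 served as alternatives. A few genes are counted in the totals and are not reported here by name. The members, classes and lists were chosen with earlier results of these data known. Named genes were clones at or beyond 0.6 in either direction, the 2 highest and 2 lowest genes of each class of at least 5 genes, genes with at least 3 clones, and a list of 12 carriers. Genes named outside this rule, which include those counted by non-overlapping runs, by several clones or by the authors' p-value and the remaining Slc25 genes, were chosen after their values were seen. Calculations used Python 3.11.15, numpy 2.4.6 and pandas 2.3.3, and the calculation of a difference, not the contrast between antibodies, was checked on simulated scores with known differences.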

Additional observations from a re-analysis of the deposited data

How the results depend on the processing

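Except in the brighter 50% of the first section, the Slc25 median moved by less than its spread between run pairs under every alternative run, from -0.14 in the brighter 50% of features to 0.05 in the brightest 25%, and so did its difference from the other carriers. In the brighter 50% of the first section it was -0.24 ± 0.42 over 8 genes, with -0.62, 0.19 and -0.375 by run pair. The other carriers were at 0.03 ± 0.15 there, over 21 genes. The median of the other carriers was 0.04 in the brightest 25% and 0.024 on the first section, each a shift larger than its spread. The count of 2 clones at least 1 unit higher became 0 without clones with raised neighbours, 0 with the median of adjoining wells subtracted, 0 on the second section and 0 without Slc25a39 and Slc15a2, and it was 3 at a threshold of 0.6. With 1 run pair left out it was 2 to 3, the third being Slc66a2 without run pair 3. The count of 0 lower clones became 1 at 0.6. Leaving out clones with 2 unlike numbers, or Slc25a39 and Slc15a2, was chosen after seeing the data. For 38 named genes 560 values were recomputed. Of these, 550 stayed within the run-pair spread of the gene, 10 moved further, and 0 called values changed sign. A gene with 1 clone cannot move past that spread when 1 run pair is left out. It also keeps its value when the brightest clone is taken or when a signal cutoff retains it. The count of 550 was therefore partly fixed in advance and does not measure stability. Only Slc25a39 and Slc15a2 were past 1 unit, so the count of sign changes covers little. The causes were not tested. No paired analysis was possible because the design holds a single sample of either antibody. How far a dim clone stood above background is unknown here, which limits what its score can show.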
